A study of Mus musculus with 12 samples.

Results

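The 9 genes described here are part of the interferon signalling chain of MC38-idAdpgkG cells. They run from the interferon-gamma receptor to its kinases, transcription factors, feedback inhibitor and a coactivator it induces. They were chosen by symbol, as a list set with earlier results of these data known. The deposited count table holds 27179 gene IDs, and each symbol matched 1 ID. The members were Ifngr1, Ifngr2, Jak1, Jak2, Stat2, Irf9, Irf1, Socs1 and Nlrc5. All 9 passed the filter on low counts. MC38 is a mouse colon carcinoma line of C57BL/6 origin. The derivative studied is stably transfected with a doxycycline-inducible Adpgk(R304M) neoantigen fused to turboGFP, whose protein can be degraded with dTAG-13, a small molecule that recruits a tagged protein to a ubiquitin ligase. The 4 groups all received 20 ng/mL mouse interferon-gamma for 51 h in total. Control cells had no further agent, and doxycycline cells had 1 µg/mL doxycycline throughout. dTAG-13 cells had 1 µM dTAG-13 added at 48 h for 3 h, and doxycycline plus dTAG-13 cells had both agents on these schedules. No group went without interferon-gamma, so the values show signalling genes in stimulated cells and not their induction by interferon. Each group is 1 culture measured in 3 technical libraries, from 1 engineered line. Errors and p-values therefore describe library spread, and a difference between groups is a difference between single cultures.

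Interferon-gamma binds a receptor made of the chains Ifngr1 and Ifngr2, which carry the kinases Jak1 and Jak2. The kinases phosphorylate STAT proteins, which enter the nucleus and bind gamma-activated sites (GAS) in promoters such as that of Irf1. Stat2 and Irf9 belong to the complex ISGF3, which binds interferon-stimulated response elements (ISRE) and is best known from type I interferon signalling. Irf1 is itself a transcription factor and drives a second wave of transcription, Socs1 binds and inhibits the JAK kinases, and Nlrc5 is the transactivator of MHC class I genes. In tumour cells this chain sets how strongly antigen presentation responds to interferon.

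The libraries held from 22165538 to 32809573 counts each, with the 3 doxycycline plus dTAG-13 libraries spanning the widest range within a group. Adpgk, the induced gene, lay at 158 to 185 CPM in the 6 libraries without doxycycline and at 1316 to 1379 CPM in the 6 with it, where CPM is the library-size-scaled read count after TMM, edgeR's trimmed mean normalisation. Markers of colon epithelium were near 0: none of 10 reached 1 CPM on average, their sum was 0.282 to 1.00 CPM, and Epcam and Cdx2 had no read, which allows up to 0.00853 CPM over the 12 libraries together (3 counts, counting error only). Of 8 mesenchymal or fibroblast markers, 4 exceeded 1 CPM (Vim, Fn1, Pdgfra and Pdgfrb). The others, Col1a1, Col1a2, Thy1 and Acta2, were near 0, with group means of 0 to 0.197 CPM. The summed level over all 8 was 2401 to 2464 CPM in control and 2204 to 2224 with doxycycline. It was 1777 to 1791 CPM with dTAG-13 and 1553 to 1597 with both agents. Vim and Fn1 were the largest, at 1502 and 774 CPM in control, and fell to 1296 and 718 with doxycycline. Pdgfra and Pdgfrb instead rose with doxycycline, from 157 to 190 and from 5.28 to 8.45 CPM. The part of these differences in the results below was not tested. Leukocyte markers summed to 0.869 to 1.96 CPM, with only Cd68 of 8 above 1 CPM and Cd3e at 0, and endothelial markers to 1.92 to 4.18 CPM, with only Pecam1 of 4 above 1 CPM.

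Promoter sequences from RefSeq (GRCm38.p6) were matched for 8 of the 9 members, with 2 windows each for Irf9 and Irf1. In the 250 bases before each start, the GAS letters TTCNNNGAA, which read the same on both strands, occurred in 1 of 10 member windows, and in 7.02% of all 32851 windows of this length. The ISRE letters GAAANNGAAA, or TTTCNNTTTC on the other strand, occurred in 2 of 10 member windows and in 2.98% of all windows. The 2 motifs did not overlap in any member window. The 3 windows with a match are shown because GAS and ISRE are the letters that STAT and IRF factors are known to bind. Capitals mark the matched letters, and each run reads 5′ to 3′ on the strand of the gene.
Irf1 (chr11:53769764-53770013, plus strand): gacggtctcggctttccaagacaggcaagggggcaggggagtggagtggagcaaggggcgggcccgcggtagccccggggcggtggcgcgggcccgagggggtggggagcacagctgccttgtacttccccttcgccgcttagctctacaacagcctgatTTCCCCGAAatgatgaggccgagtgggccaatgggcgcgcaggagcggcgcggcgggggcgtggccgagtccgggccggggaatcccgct
Stat2 (chr10:128270248-128270497, plus strand): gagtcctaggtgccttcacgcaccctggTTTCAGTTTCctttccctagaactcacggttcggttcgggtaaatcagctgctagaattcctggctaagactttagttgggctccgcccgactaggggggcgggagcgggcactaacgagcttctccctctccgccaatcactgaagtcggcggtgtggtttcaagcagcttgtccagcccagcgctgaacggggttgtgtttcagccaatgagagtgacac
Socs1 (chr16:10785537-10785786, minus strand): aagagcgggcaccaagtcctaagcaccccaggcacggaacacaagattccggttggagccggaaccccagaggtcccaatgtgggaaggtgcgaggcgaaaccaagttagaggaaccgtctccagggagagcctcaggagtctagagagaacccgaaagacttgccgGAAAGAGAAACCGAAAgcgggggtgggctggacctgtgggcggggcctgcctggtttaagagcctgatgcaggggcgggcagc
The Irf1 window holds a GAS match, TTCCCCGAA, at 90 to 82 bases before the start. The Stat2 window holds 1 ISRE match, at 222 to 213 bases before the start. In the Socs1 window 2 ISRE matches overlap, at 83 to 74 and 77 to 68 bases before the start. A match describes letters in these windows and is not evidence of binding in these cells.

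Per kilobase of transcript, Irf1 was the most abundant member in control cells. Its level was 208 ± 0.409 CPM per kb (mean ± SD, n = 3, as for all following values with ±). Jak1 followed at 46.2 ± 0.854 and Irf9 at 24.8 ± 0.409 CPM per kb. Jak2 at 14.0 ± 0.458 and Stat2 at 13.9 ± 0.186 CPM per kb lay within their library spread. Nlrc5 at 11.7 ± 0.264 and Ifngr1 at 11.4 ± 0.288 CPM per kb did likewise, and Ifngr2 was at 10.6 ± 0.127. The order rests on the transcript length chosen for each gene, which the SD does not cover. Another length was tried only for Socs1. Socs1 was lowest, at 4.96 ± 0.298 CPM per kb on a GENCODE transcript of 2908 bases, or 8.35 CPM per kb on the RefSeq gene span of 1729 bases. Socs1 was the lowest member on either length.

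**Figure D1:**
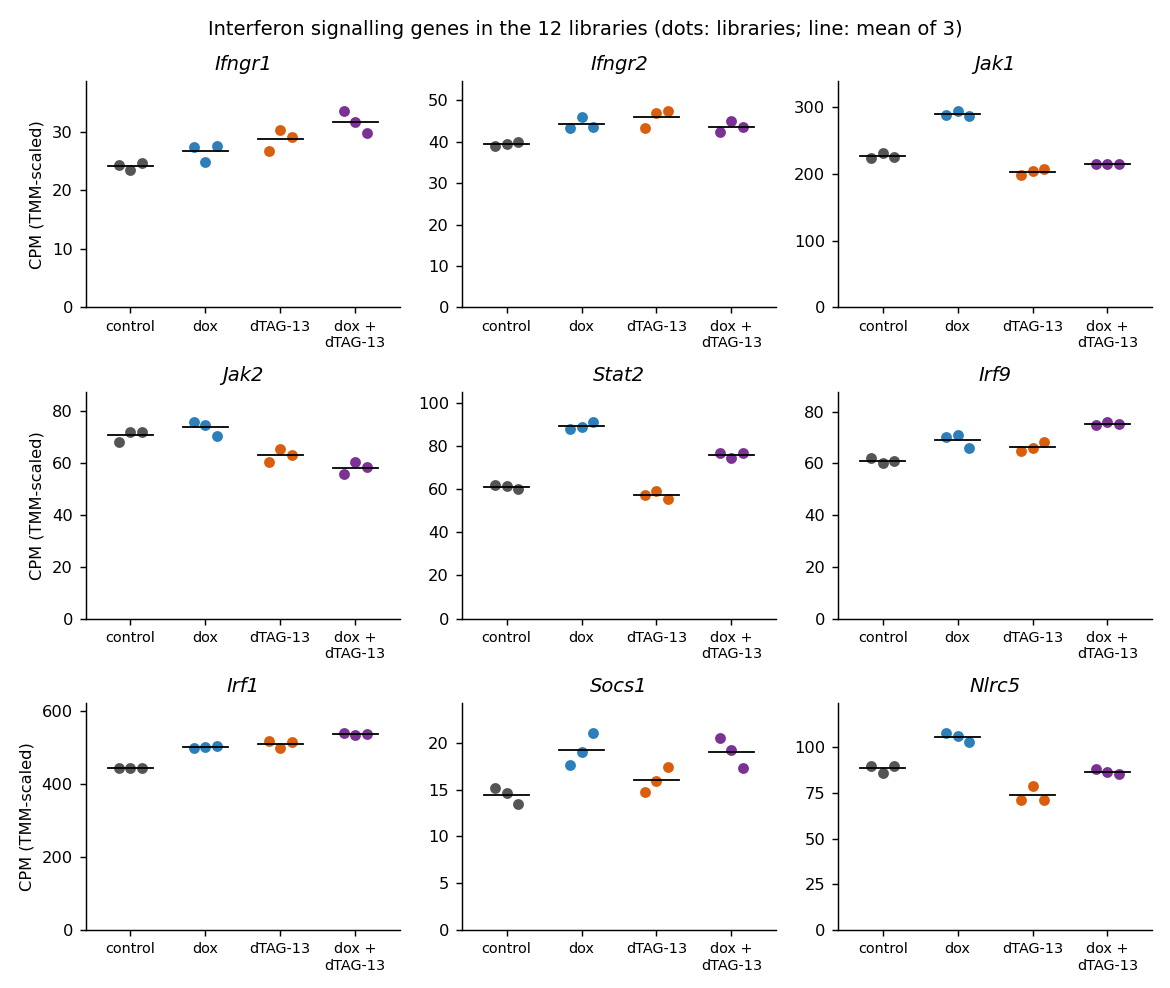
TMM-scaled CPM (y axis, from 0) of each member in the 12 libraries, by group on the x axis (dox, doxycycline). Dots are libraries and lines are means of 3 libraries. Stat2 was at 87.8 to 91.3 CPM with doxycycline against 60.3 to 61.9 in control, and Jak1 stood apart in the doxycycline group, at 287 to 295 CPM.

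Ifngr1 (Entrez 15979, chr10:19591949-19610229), the ligand-binding receptor chain, had its lowest values in control. The control libraries held 24.3, 23.4 and 24.6 CPM and the doxycycline libraries 27.4, 24.9 and 27.6 CPM. The dTAG-13 libraries held 26.7, 30.2 and 29.1 CPM and the libraries with both agents 33.6, 31.6 and 29.7 CPM. Control did not overlap any other group, while neighbouring groups among the other 3 overlapped. dTAG-13 raised Ifngr1 against control, with a log2 fold change of 0.25 (SE 0.058 and adjusted p 2.29e-04) and in doxycycline cells by 0.24 (SE 0.057, adjusted p 2.83e-04). The doxycycline differences were 0.145 (SE 0.058, adjusted p 0.0507) without dTAG-13 and 0.14 (SE 0.057, adjusted p 0.0812) with it, and neither passed the threshold. Without doxycycline replicate 2 the former was 0.204 (adjusted p 0.0133), a call, and it was also called without doxycycline plus dTAG-13 replicate 1 (0.145) or dTAG-13 replicate 1 or 2 (0.156 each), with library size only (0.181), without the low-count filter (0.154) and in a fit of the groups compared alone (0.158). The latter was called without doxycycline plus dTAG-13 replicate 3 (0.186) or dTAG-13 replicate 2 (0.182).

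Ifngr2 (Entrez 15980, chr16:91547059-91564007), the signal-transducing receptor chain, was also lowest in control. Its libraries held 38.9, 39.4 and 39.8 CPM in control and 43.2, 45.9 and 43.6 CPM with doxycycline. They held 43.4, 46.9 and 47.5 CPM with dTAG-13 and 42.3, 45.1 and 43.5 CPM with both. All 9 treated libraries were above all 3 control libraries, and the 3 treated groups overlapped one another. Ifngr2 rose with doxycycline by 0.17 (SE 0.045, adjusted p 0.00292) and with dTAG-13 by 0.22 (SE 0.044, adjusted p 3.24e-05). In cells that already had the other agent, the differences were -0.018 for dTAG-13 (SE 0.045, adjusted p 0.739) and -0.074 for doxycycline (SE 0.045, adjusted p 0.267).

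Jak1 (Entrez 16451, chr4:101151974-101265282, with exons that overlap Raver2 on the opposite strand), the kinase shared by the receptors of both interferon types, was highest with doxycycline alone. Its control libraries held 224, 231 and 225 CPM and its doxycycline libraries 289, 295 and 287 CPM. The dTAG-13 libraries held 199, 205 and 207 CPM and the 3 libraries with both agents 215 CPM each. No neighbouring groups overlapped, and the order of means was dTAG-13, both agents, control, doxycycline. Jak1 rose with doxycycline by 0.36 (SE 0.024, adjusted p 1.53e-15), a fold of 1.28. It fell with dTAG-13 by 0.15 on the log2 scale (SE 0.024, adjusted p 7.34e-07) and, in doxycycline cells, by 0.43 (SE 0.024, adjusted p 6.40e-19). With transcript length and GC content removed, the former was -0.013 and not called (adjusted p 0.649), and the latter was -0.224. Among dTAG-13 cells, doxycycline raised Jak1 by 0.080 (SE 0.025, adjusted p 0.0172), a call lost when only library size was scaled (0.045, adjusted p 0.202) and without dTAG-13 replicate 1 (0.065, adjusted p 0.0946).

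Jak2 (Entrez 16452, chr19:29251803-29313095), the kinase carried by Ifngr2, was lower in the groups with dTAG-13. Its libraries held 67.9, 72.0 and 71.8 CPM in control and 75.8, 74.7 and 70.3 CPM with doxycycline. They held 60.1, 65.2 and 63.1 CPM with dTAG-13 and 55.6, 60.1 and 58.5 CPM with both. All 6 libraries with dTAG-13 were below all 6 without it, whereas groups that differed only in doxycycline overlapped. Jak2 fell with dTAG-13 by 0.17 (SE 0.040, adjusted p 3.19e-04) and, in doxycycline cells, by 0.34 (SE 0.041, adjusted p 1.36e-09). The former was -0.077 and not called (adjusted p 0.0875) when only library size was scaled. Doxycycline gave 0.061 against control (SE 0.039, adjusted p 0.249). Among dTAG-13 cells it gave -0.11 (SE 0.041, adjusted p 0.0509), which was called with library size only (-0.146) and without control replicate 3 (-0.109), doxycycline plus dTAG-13 replicate 2 (-0.134) or dTAG-13 replicate 1 (-0.140).

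Stat2 (Entrez 20847, chr10:128270498-128292853), whose promoter holds the ISRE match printed above, varied most among the members, with a highest group mean 1.56 times the lowest. Its libraries held 61.9, 61.4 and 60.3 CPM in control and 87.8, 89.0 and 91.3 CPM with doxycycline. They held 57.4, 59.0 and 55.4 CPM with dTAG-13 and 76.9, 74.5 and 76.8 CPM with both. The 4 groups did not overlap, and both groups with doxycycline lay above both groups without it. Stat2 rose with doxycycline by 0.545 (SE 0.035, adjusted p 3.92e-16), a fold of 1.46, and among dTAG-13 cells by 0.41 (SE 0.036, adjusted p 8.26e-12). It fell with dTAG-13 in doxycycline cells by 0.23 (SE 0.035, adjusted p 2.31e-07), a call lost with transcript length and GC content removed (-0.015, adjusted p 0.749). Against control, dTAG-13 gave -0.096 (SE 0.037, adjusted p 0.0216), a call lost without dTAG-13 replicate 3 (-0.080, adjusted p 0.0899) and with library size only (-0.004, adjusted p 0.925), and turned to 0.077 (adjusted p 0.0699) with length and GC removed.

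Irf9 (Entrez 16391, chr14:55603985-55610030, with exons that overlap Rnf31 on the same strand), the DNA-binding partner of Stat2, was highest with both agents. Its libraries held 62.1, 60.1 and 60.8 CPM in control and 70.2, 70.8 and 66.0 CPM with doxycycline. They held 64.6, 65.8 and 68.2 CPM with dTAG-13 and 75.0, 76.1 and 75.1 CPM with both. Control was below, and the group with both agents above, every other library, while the single-agent groups overlapped. Irf9 rose with doxycycline by 0.18 (SE 0.037, adjusted p 1.66e-04) and, among dTAG-13 cells, by 0.19 (SE 0.037, adjusted p 1.55e-04). It rose with dTAG-13 by 0.12 (SE 0.037, adjusted p 0.00588), a call lost without dTAG-13 replicate 3 (0.089, adjusted p 0.0641), and by 0.13 in doxycycline cells (SE 0.037, adjusted p 0.00260).

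Irf1 (Entrez 16362, chr11:53770014-53778374, with exons that overlap a protein-coding gene model on the opposite strand), whose promoter holds the GAS match, had the smallest relative spread in control. Its libraries held 444, 444 and 445 CPM in control and 499, 501 and 504 CPM with doxycycline. They held 519, 500 and 515 CPM with dTAG-13 and 541, 536 and 538 CPM with both. The order of means was that of Ifngr1, with control lowest and both agents highest. Control and the group with both agents stood apart from the rest, and the single-agent groups overlapped. Irf1 rose with doxycycline by 0.17 (SE 0.021, adjusted p 8.12e-09), with dTAG-13 by 0.20 (SE 0.021, adjusted p 2.39e-11) and with dTAG-13 in doxycycline cells by 0.10 (SE 0.021, adjusted p 3.07e-05). Among dTAG-13 cells, doxycycline raised it by 0.074 (SE 0.021, adjusted p 0.00759), a fold of 1.05, and this call was lost with library size only (0.039, adjusted p 0.175) and without dTAG-13 replicate 2 (0.062, adjusted p 0.0551).

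Socs1 (Entrez 12703, chr16:10783808-10785536), the feedback inhibitor with the paired ISRE letters, had the fewest reads of the 9, from 380 to 612 per library. Its libraries held 15.2, 14.6 and 13.5 CPM in control and 17.7, 19.0 and 21.1 CPM with doxycycline. They held 14.8, 15.9 and 17.4 CPM with dTAG-13 and 20.5, 19.3 and 17.3 CPM with both. The doxycycline libraries lay above control, and all other neighbouring groups in the order of means overlapped. Socs1 rose with doxycycline by 0.41 (SE 0.075, adjusted p 2.77e-05), a fold of 1.33. Among dTAG-13 cells it rose by 0.24 (SE 0.075, adjusted p 0.0175), with overlapping libraries. That call was lost without doxycycline plus dTAG-13 replicate 1 (0.190) or 2 (0.230) and without dTAG-13 replicate 1 (0.191) or 2 (0.241). dTAG-13 gave 0.15 against control (SE 0.077, adjusted p 0.0937) and -0.024 in doxycycline cells (SE 0.074, adjusted p 0.792). The former was called with transcript length and GC content removed (0.271, adjusted p 0.00247), with library size only (0.239) and without dTAG-13 replicate 1 (0.196). The correction took Socs1 as 2908 bases long, against a RefSeq gene span of 1729 bases. A correction with the shorter length was not tested.

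Nlrc5 (Entrez 434341, chr8:94434335-94527272, with exons that overlap a lincRNA on the opposite strand) was highest with doxycycline and lowest with dTAG-13. Its libraries held 89.7, 86.2 and 89.7 CPM in control and 108, 106 and 103 CPM with doxycycline. They held 71.2, 78.6 and 71.1 CPM with dTAG-13 and 88.1, 86.4 and 85.6 CPM with both. Control and the group with both agents overlapped, and the other groups stood apart on either side. Nlrc5 rose with doxycycline by 0.25 (SE 0.035, adjusted p 2.04e-07) and, among dTAG-13 cells, by 0.23 (SE 0.037, adjusted p 4.66e-06). As counted, it fell with dTAG-13 by 0.265 (SE 0.036, adjusted p 3.11e-08) and also in doxycycline cells, where the log2 difference was -0.285 (SE 0.036, adjusted p 3.97e-09). Both decreases turned into increases once transcript length and GC content were removed, to 0.109 (adjusted p 0.00794) and 0.154 (adjusted p 2.46e-04), so their direction depends on this setting.

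With doxycycline against control, 7 of the 9 members were called higher and none lower. The 7 were Ifngr2, Jak1, Stat2, Irf9, Irf1, Socs1 and Nlrc5, and Ifngr1 and Jak2 did not pass. Of all 12910 genes tested, 33.5% were called, 14.8% higher and 18.7% lower, by edgeR's quasi-likelihood test with Benjamini-Hochberg adjustment over all genes (called at an adjusted p under 0.05). The median log2 fold change was 0.179 over the members and -0.010 over all genes. As the members were chosen with earlier results of these data known, setting them beside all genes is a description only. The libraries of the 2 groups did not overlap for 8 members, against 43.9% of all genes. With scaling by library size only, 61.3% of the called genes were higher, against 44.3% with TMM. No member value in this comparison changed sign under the alternatives tried.

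Among cells with dTAG-13, doxycycline again gave only increases among the calls, with 6 members higher (Jak1, Stat2, Irf9, Irf1, Socs1 and Nlrc5) and none lower. Of all genes 20.4% were called, 10.7% higher and 9.64% lower, and the higher share of the calls went from 52.7% to 30.3% with library size only. The member median was 0.138 and that of all genes -0.001. For 5 members the libraries did not overlap, against 34.3% of all genes. Jak2 was near the threshold, at -0.111 (adjusted p 0.0509). With library size only, Jak2 was called lower (-0.146, adjusted p 0.00761) and Jak1 and Irf1 lost their calls. Of 12 cases of 1 library left out, Socs1 lost its call in 4 and Jak2 was called lower in 3.

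**Figure D2:**
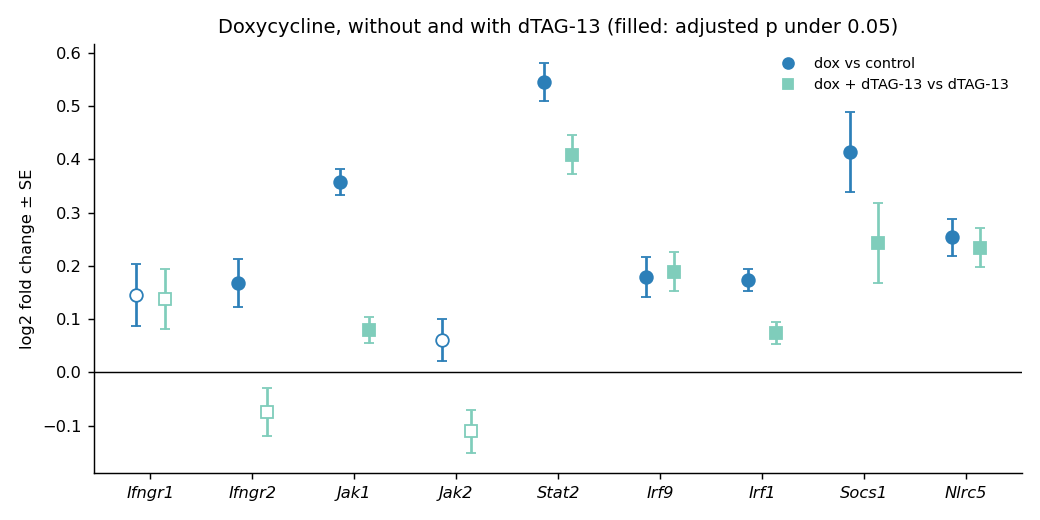
Log2 fold change (y axis) of each member (x axis) with doxycycline, against control (circles) and among dTAG-13 cells (squares). Bars are standard errors, and filled symbols passed an adjusted p of 0.05. Stat2 had the largest value in both comparisons, 0.545 and 0.409.

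With dTAG-13 against control the members split by gene as counted. With transcript length and GC content removed, 6 were called higher and only Jak2 lower, beside 3027 and 3932 of all 12910 genes. As counted, Ifngr1, Ifngr2, Irf9 and Irf1 rose, while Jak1, Jak2, Stat2 and Nlrc5 fell, and Socs1 did not pass. These 4 higher and 4 lower members stand beside 62.1% of all genes called, 30.0% higher and 32.1% lower. The libraries did not overlap for 8 members, against 65.5% of all genes. The member median was 0.117 and that of all genes 0.019. With library size only, 62.8% of called genes were higher, against 48.3% with TMM.

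dTAG-13 added to doxycycline cells gave 3 members higher (Ifngr1, Irf9 and Irf1) and 4 lower (Jak1, Jak2, Stat2 and Nlrc5), and Ifngr2 and Socs1 did not pass. Of all genes 64.1% were called, 30.7% higher and 33.4% lower. The member median was -0.024 and that of all genes 0.003, and 7 members did not overlap, against 67.2% of all genes. The members called lower in both dTAG-13 comparisons have the longest transcripts of the chain, from 4394 bases for Stat2 to 7578 for Nlrc5, against 2112 to 3708 for the rest. Over all tested genes, the median dTAG-13 difference against control went from 0.185 in the 2939 genes with the shortest transcripts (up to 1916 bases) to -0.221 in the 2935 with the longest (from 4495 bases). In doxycycline cells it went from 0.272 to -0.309, whereas with doxycycline against control it went from -0.030 to 0.017. Each value was therefore recomputed with length and GC content removed, and the part of length in the member results was not otherwise tested.

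**Figure D3:**
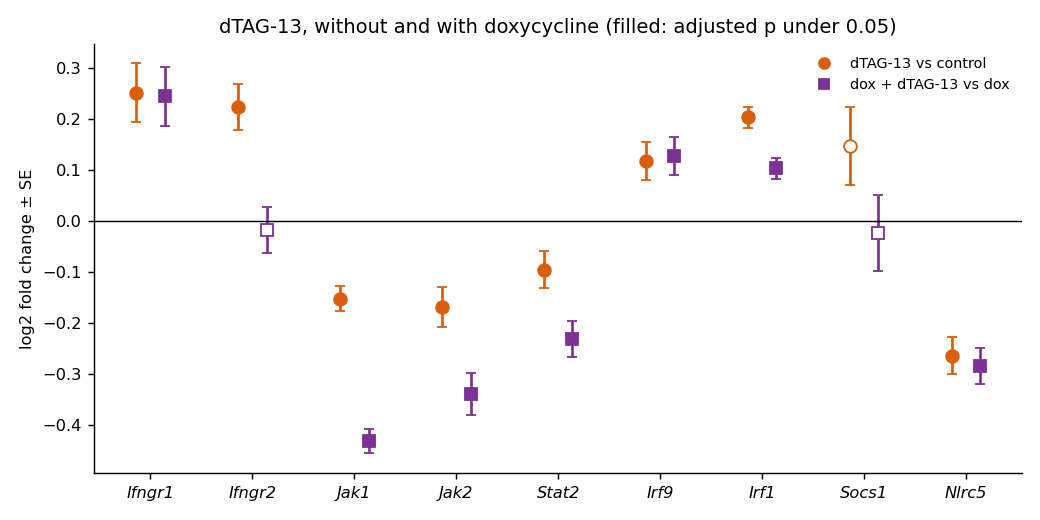
Log2 fold change (y axis) of each member (x axis) with dTAG-13, against control (circles) and in doxycycline cells (squares), with standard errors. Filled symbols passed an adjusted p of 0.05. Jak1 fell by 0.15 and by 0.43, and Ifngr1 rose by 0.25 and 0.24.

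With length and GC content removed, the 6 members called higher with dTAG-13 against control were Ifngr1, Ifngr2, Irf9, Irf1, Socs1 and Nlrc5. Of all 12910 genes, 3027 were then called higher and 3932 lower. The Socs1 value rests on the transcript of 2908 bases, and the RefSeq span of 1729 bases was not tested. Jak2 remained lower, at -0.109 (adjusted p 0.0133), Jak1 was at -0.013 (adjusted p 0.649) and Stat2 at 0.077 (adjusted p 0.0699). In doxycycline cells the corrected calls were 4 higher and 2 lower, beside 3295 higher and 3452 lower of all 12910 genes. Jak1 stayed lower at -0.224 (adjusted p 1.05e-10) and Jak2 at -0.207 (adjusted p 1.86e-05), whereas Stat2 went to -0.015 (adjusted p 0.749). Ifngr1, Irf9 and Irf1 stayed called higher in both comparisons with the correction, at 0.140, 0.088 and 0.169 against control and at 0.146, 0.119 and 0.066 in doxycycline cells. The corrected doxycycline calls against control were 7 higher and 0 lower, beside 1574 and 3019 of all 12910 genes. Among dTAG-13 cells they were 6 and 0, beside 1215 and 1073.

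**Figure D4:**
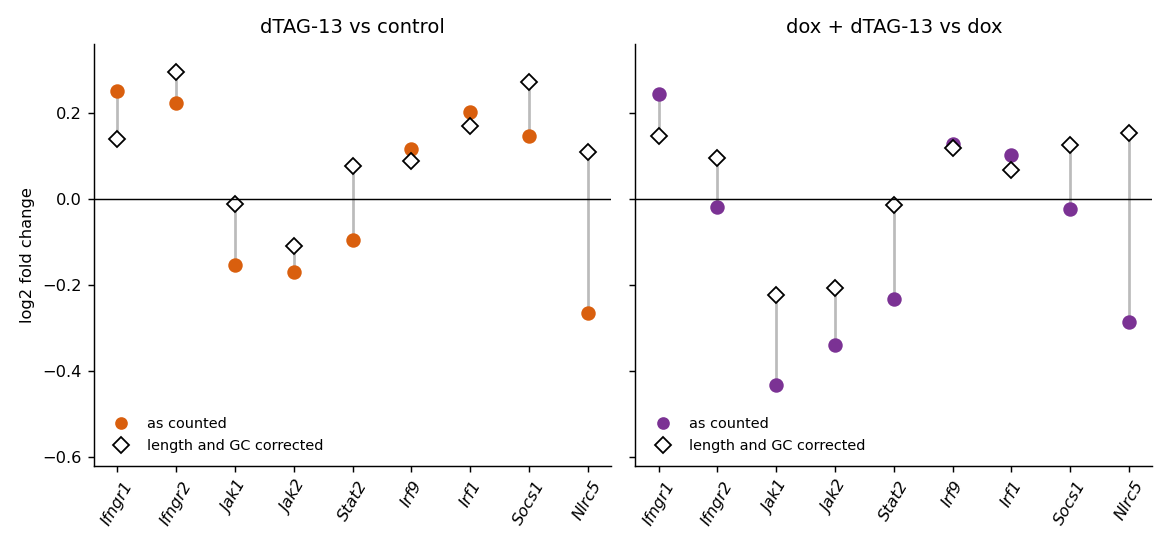
Log2 fold change (y axis) of each member (x axis) for both dTAG-13 comparisons, as counted (dots) and after removal of transcript length and GC content (diamonds). Nlrc5 crossed 0 in both panels, from -0.265 to 0.109 and from -0.285 to 0.154.

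Whether dTAG-13 differed in its effect between cells with and without doxycycline was tested as an interaction, the effect with doxycycline minus that without. It was called for 5 members, all in the negative direction, beside 22.9% of all genes (13.2% positive and 9.64% negative). Over all tested genes, the median interaction was 0.088 for the shortest transcripts (up to 1916 bases) and -0.053 for the longest (from 4495 bases). With library size only, 25.2% of the called genes were positive, against 57.8% with TMM and 69.5% after the length and GC correction. Jak1 had the largest value, -0.28 (SE 0.035, adjusted p 6.58e-08), since its fall was 0.15 without and 0.43 with doxycycline. Ifngr2 had -0.24 (SE 0.063, adjusted p 0.00423), having risen with dTAG-13 only against control. Irf1 had -0.10 (SE 0.029, adjusted p 0.0101). These 3 calls held under the alternatives tried. With length and GC removed the values were -0.210 for Jak1, -0.201 for Ifngr2 and -0.103 for Irf1. Jak2 had -0.17 (SE 0.057, adjusted p 0.0247), lost with DESeq2 (-0.162), with length and GC removed (-0.098) and without control replicate 1 (-0.138), doxycycline replicate 1 (-0.157), doxycycline plus dTAG-13 replicate 1 (-0.143) or dTAG-13 replicate 2 (-0.150) or 3 (-0.162). Stat2 had -0.14 (SE 0.051, adjusted p 0.0469), lost without the low-count filter (-0.135), under DESeq2 (-0.127) or its size factors (-0.126), and with length and GC removed (-0.091). Leaving out 1 library lost it in 10 of 12 cases, the exceptions being doxycycline replicate 1 and dTAG-13 replicate 3, and its value then lay between -0.156 and -0.114. The interaction was -0.007 for Ifngr1 (95% interval -0.166 to 0.152), 0.010 for Irf9 (-0.092 to 0.112), -0.171 for Socs1 (-0.379 to 0.037) and -0.020 for Nlrc5 (-0.119 to 0.080), none of which passed.

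The wider pathway list held 42 further receptor, kinase, STAT, IRF, inhibitor and cofactor genes, of which 34 passed the filter on low counts. Those below it, among them Ifnlr1, Stat4, Irf4, Irf8, Cish, Ptpn6 and Ciita, had 0 to 87 reads over the 12 libraries. With doxycycline against control, 10 of the 34 were called higher and 7 lower, beside 14.8% and 18.7% of all genes. Among dTAG-13 cells 6 were higher and 1 lower, beside 10.7% and 9.64% of all genes. Irf7, an IRF that is itself interferon-induced, changed most in both. It rose from 7.24 ± 0.698 to 14.0 ± 0.531 CPM against control (log2 fold change 0.95, SE 0.093, adjusted p 9.84e-11) and from 7.97 ± 1.05 to 16.1 ± 1.64 CPM among dTAG-13 cells (1.01, SE 0.091, adjusted p 1.86e-11). Usp18, which removes ISG15 and restrains the type I receptor, rose by 0.45 (SE 0.13, adjusted p 0.00648) and by 0.90 (SE 0.14, adjusted p 2.91e-06). Socs3, the inhibitor best known from the gp130 cytokine receptors, fell with doxycycline by 0.33 (SE 0.058, adjusted p 1.82e-05), from 30.4 ± 0.957 to 24.2 ± 1.64 CPM. Among dTAG-13 cells doxycycline instead raised Socs3, from a mean of 22.8 ± 1.39 up to 26.5 ± 1.52 CPM, a log2 difference of 0.22 (SE 0.060, adjusted p 0.00656). The Socs3 interaction was 0.55 (SE 0.084, adjusted p 3.94e-06). Batf2, a basic leucine zipper factor induced by interferon-gamma, rose by 0.32 among dTAG-13 cells (SE 0.065, adjusted p 2.67e-04). With doxycycline against control it rose by 0.298 (SE 0.059, adjusted p 9.69e-05).

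With dTAG-13, most called genes of the wider list were lower: 4 higher and 21 lower against control, beside 30.0% and 32.1% of all genes, and 5 and 21 in doxycycline cells, beside 30.7% and 33.4%. The list medians were -0.228 and -0.189, against 0.019 and 0.003 over all genes, and shrank to -0.115 and -0.072 with length and GC removed. As counted, the acetyltransferases and STAT coactivators Crebbp and Ep300 had the largest falls of the list, by 0.83 (SE 0.058, adjusted p 1.10e-14) and 0.775 (SE 0.033, adjusted p 7.57e-23) against control and by 0.68 (SE 0.059) and 0.69 (SE 0.034) in doxycycline cells. With length and GC removed these values were -0.392, -0.368, -0.185 and -0.217, and Batf2 was then lowest of the list in both comparisons, at -0.470 and -0.518. Ptpn1, a phosphatase that acts on JAK kinases, fell by 0.55 against control (SE 0.034, adjusted p 1.80e-17, -0.333 corrected). In doxycycline cells Ptpn1 fell by 0.413 (SE 0.035, adjusted p 1.82e-13, -0.165 corrected). Stat3 fell by 0.525 in doxycycline cells (SE 0.030, adjusted p 5.90e-19, -0.287 corrected). Against control Stat3 fell by 0.324 (SE 0.0295, adjusted p 1.38e-12, -0.130 corrected). With the correction, the list had 3 higher and 18 lower against control, beside 3027 and 3932 of all 12910 genes. In doxycycline cells it had 5 and 14, beside 3295 and 3452. The interaction was called positive for 5 and negative for 5 of the 34, beside 13.2% and 9.64% of all genes. With length and GC removed these were 9 and 3, beside 1972 and 867 of all 12910 genes.

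**Figure D5:**
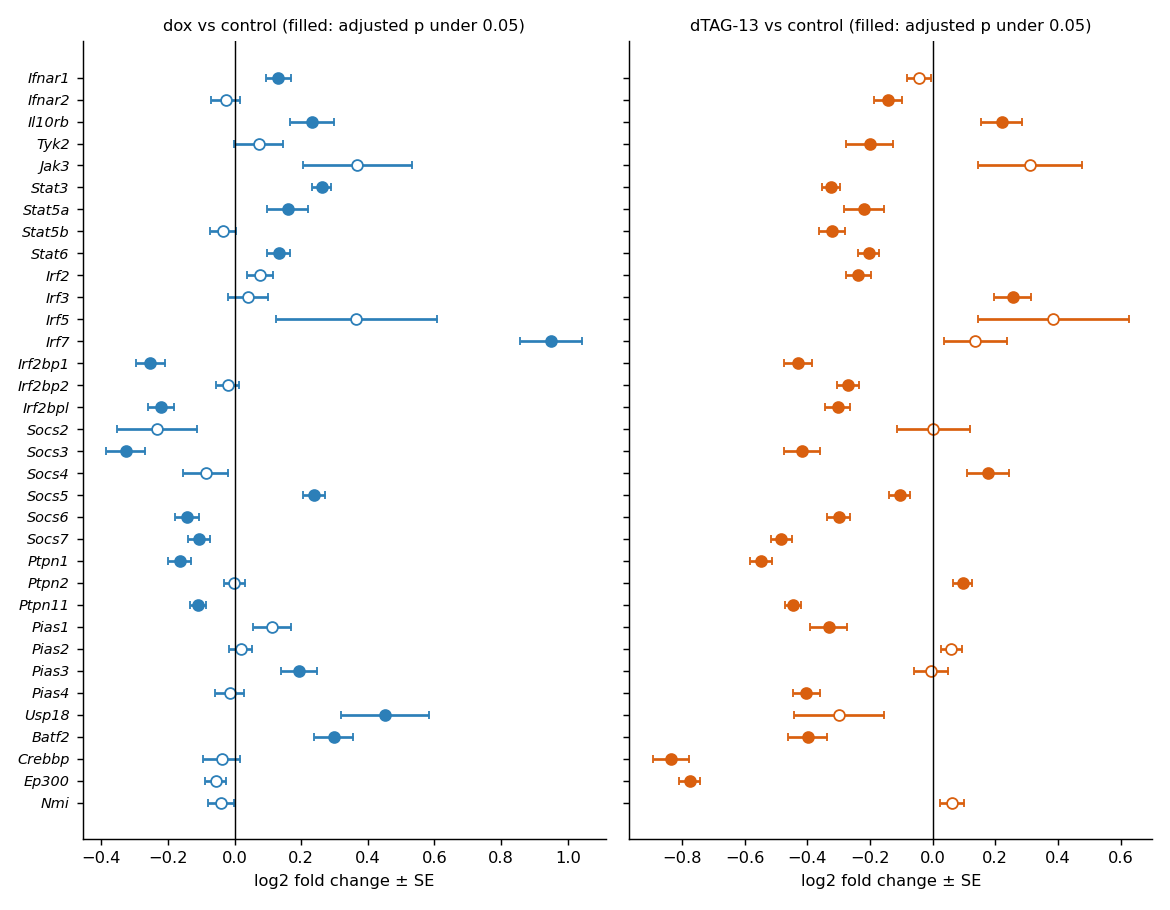
Log2 fold change with standard error (x axis) of the 34 tested genes of the wider pathway list (y axis), for doxycycline and for dTAG-13 against control. Filled symbols passed an adjusted p of 0.05, with 10 higher and 7 lower on the left and 4 higher and 21 lower on the right.

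The members differed among themselves in pattern over the 12 libraries. As a description, Pearson's r of log2 CPM was 0.913 between Jak1 and Nlrc5, 0.876 between Irf9 and Irf1 and 0.852 between Ifngr1 and Irf1, and was -0.752 between Ifngr1 and Jak2. The kinases Jak1 and Jak2 had r = 0.739, the receptor chains 0.564 and the partners Stat2 and Irf9 0.557. The points are 4 groups of 3 libraries that share treatment, depth and length trend, so these values describe group patterns. Among 11548 other genes of at least 1 CPM, those most like Jak1 were Sh3d19 (r = 0.986) and Nid1 (0.984), and those most like Stat2 were Nol4 (0.990) and Col12a1 (0.980). Those most like Jak2 were Cd2ap and Rpn2 (0.980 each), and Zbtb5 was among those most like Socs1 (0.911). Nol4 averaged 4.90 CPM in control, 15.0 with doxycycline, 4.02 with dTAG-13 and 10.5 with both, the group order of Stat2.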

How the data were processed

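RNA was measured in 12 libraries, 3 technical libraries of 1 culture in each of 4 groups; poly(A) RNA was made into libraries with an NEBNext Ultra II kit, per the labels' protocols. The deposited table holds whole-number counts per Entrez ID, not normalised by the authors. Reads were aligned with Subread, per the file headers, and bcl2fastq 2.17, featureCounts and mm10 are named in the submitters' processing notes. The annotation, strand setting and handling of multiply mapped reads are not stated in those sources, so reads of overlapping genes cannot be told apart. Symbols and positions came from RefSeq GRCm38.p6 (25275 IDs) and GENCODE M21 (17 IDs), and 1887 IDs with 2.10% of the reads had no symbol. Transcript length and GC content were those of the longest GENCODE M21 transcript with an APPRIS principal tag, or else the longest.

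Counts were analysed in R 4.3.3 with edgeR 4.0.16: filterByExpr by group (12910 genes kept), TMM factors (0.965 to 1.03), 1 mean per group over all 12 libraries, and the robust quasi-likelihood F test (two-sided), with Benjamini-Hochberg adjustment over all tested genes. Standard errors were derived from the log2 fold change and the F statistic, and 95% intervals assume normal errors. Library pairs of 1 group differed beyond sampling noise (chi-square per gene 2.43 to 8.80), so each counted as 1 library. The highest values were those of doxycycline plus dTAG-13 replicate 3 against replicates 1 (8.445) and 2 (8.798). Replicates 1 and 2 of that group gave 2.754. The alternatives were DESeq2 size factors, library size only, DESeq2 1.42.0, no filter, a filter of 1 CPM in 3 libraries, only the groups compared, a replicate block, removal of length and GC splines (5 degrees of freedom each, 91.0% of tested genes with a length), and leaving out each library. The main edgeR fit was tested on simulated data for doxycycline against control only. It recovered 64.0% of 1.2-fold and 83.0% of 1.5-fold changes. The other comparisons and the alternatives were not checked in this way.

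The members and lists were chosen with earlier results of these data known. Named besides the 9 members were the 3 called genes of the wider list with the largest absolute log2 fold change in each pairwise comparison and a mean of at least 1 CPM. For each member called in a pairwise comparison with an absolute log2 fold change of at least 0.3, the 2 genes of at least 1 CPM with the highest Pearson's r of log2 CPM were named too. Genes of the wider list below the filter, Epcam, Cd3e and other marker genes were named outside this rule, after their values were seen. Some genes that these rules select are not reported here.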

Additional observations from a re-analysis of the deposited data

Results flagged for a closer look

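For 5 members the dTAG-13 effect in doxycycline cells differed from that in cells without doxycycline, by the interaction term of the edgeR fit. Of all 12910 genes tested, 22.9% were called for this term, 13.2% positive and 9.64% negative. The differences, with minus without doxycycline, were -0.278 for Jak1, -0.241 for Ifngr2, -0.171 for Jak2, -0.136 for Stat2 and -0.100 for Irf1 on the log2 scale. As counted, for Jak1, Jak2 and Stat2 the fall with dTAG-13 was larger with doxycycline, for Irf1 the rise was smaller, and for Ifngr2 a rise was called only without doxycycline. The calls of Jak1, Ifngr2 and Irf1 held under the alternatives tried. The Stat2 call was lost in 10 of 12 cases of 1 library left out and the Jak2 call in 5 of 12, and both were lost with DESeq2 and with length and GC content removed. With length and GC removed, dTAG-13 against control gave -0.013 for Jak1 and 0.077 for Stat2, neither of them called. Each value rests on 1 culture per group.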

How the results depend on the processing

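Of the 45 member values (9 members in 5 comparisons), 24 kept their direction and their side of the threshold under every alternative and every left-out library. Over the alternatives other than left-out libraries, 320 of 351 values kept both, 13 lost the call, 7 gained one and 11 changed sign. The count of members called changed by over 1.5 times only for the interaction, from 5 to 3 with DESeq2 and to 3 after the length and GC correction, and it was 3 to 4 without single libraries. The length and GC correction gave the sign changes of Nlrc5 with dTAG-13 (0.109) and with dTAG-13 in doxycycline cells (0.154), of Stat2 with dTAG-13 (0.077), of Ifngr2 (0.094) and Socs1 (0.126) with dTAG-13 in doxycycline cells, and of the interactions of Nlrc5 (0.045) and Ifngr1 (0.005). Library size only turned Ifngr2 with dTAG-13 in doxycycline cells (0.002) and the Irf9 interaction (-0.061), and the Ifngr1 interaction turned with DESeq2 size factors (0.003) and DESeq2 (0.004). The cause was not tested. Without single libraries, sign changes occurred only in values that were not called. Ifngr2 and Socs1 with dTAG-13 in doxycycline cells ranged from -0.049 to 0.000 and from -0.095 to 0.045. The interactions ranged from -0.067 to 0.044 for Ifngr1, from -0.017 to 0.037 for Irf9 and from -0.054 to 0.023 for Nlrc5.

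Libraries with the same replicate number had r of -0.0208 to 0.0801 in 18 pairs across groups. For different numbers r was -0.0605 to 0.0657 in 36 pairs. The ranges overlapped, so no clear pairing by number was seen, but these values cannot exclude a weak one. With the replicate block, the interaction was called for 4 members in place of 5, since Stat2 (-0.136) lost its call, Jak2 among dTAG-13 cells (-0.111) gained one, and no other member call changed. Depth limits Socs1 most, at 380 to 612 reads per library, and intervals cover the spread of technical libraries only.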
